A study of Mus musculus with 4 samples.

Results

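The mast cell genes Cpa3, Cma1, Mcpt4, Tpsb2, Kit, Fcer1a, Ms4a2 and Hdc were followed over 4 expression arrays of mouse tissue labelled thyroid. All probes carrying these symbols in the platform's annotation were taken, which gave 10 probes for 7 of the 8 genes, among 26512 probes and 16593 named genes. Kit had 0 probes in the annotation used, by symbol or by gene identifier, and its transcript is not reported. The samples came from normal Balb/c mice of a study of iodine-131, a beta-emitting radioisotope that thyroid follicular cells take up. Absorbed doses were 0, 0.85, 8.5 and 17 Gy by the labels, which state 24 h for every sample and name no genetic change. There was 1 array at each dose, so no difference below has a replicate check, an error or a p-value, and the spread between animals is unknown. The sources used here do not give the animals behind each sample, their age, or the slide and scan of each array.

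Mast cells are long-lived immune cells of connective tissue that lie close to small vessels and nerves. Their granules store histamine, heparin-bearing serglycin and large amounts of proteases, and are released when antigen cross-links immunoglobulin E on the high-affinity receptor. Survival and maturation in tissue depend on the receptor tyrosine kinase KIT and its ligand, stem cell factor. Mouse connective tissue mast cells carry a carboxypeptidase (Cpa3), chymases (Cma1, Mcpt4) and a tryptase (Tpsb2), whereas mucosal mast cells are marked by the chymases Mcpt1 and Mcpt2. GATA factors, GATA2 above all, and MITF are the best known regulators of mast cell granule and receptor genes.

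The promoters of Cpa3, Cma1, Mcpt4 and Hdc are shown because these detected genes were each lowest at 8.5 Gy, as described below. RefSeq windows (GRCm38.p6) from 250 bases before to 50 bases after the transcript start were matched by symbol for 7 of the 8 genes, all but Tpsb2. The windows lie at chr3:20242132-20242431 for Cpa3, chr14:55944626-55944925 for Cma1, chr14:56062261-56062560 for Mcpt4 and chr2:126618629-126618928 for Hdc, all on the minus strand. They are printed 5′ to 3′ on the strand of the gene, with GATA motifs in capitals. The letters searched were AGATAA, likewise AGATAG, likewise TGATAA, likewise TGATAG, with the reverse complement of each.
Cpa3: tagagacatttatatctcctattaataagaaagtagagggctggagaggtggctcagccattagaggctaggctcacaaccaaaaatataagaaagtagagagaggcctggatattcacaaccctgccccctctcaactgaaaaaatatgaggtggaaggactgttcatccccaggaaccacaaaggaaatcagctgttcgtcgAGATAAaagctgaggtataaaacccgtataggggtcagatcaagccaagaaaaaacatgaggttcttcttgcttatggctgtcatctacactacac
Cma1: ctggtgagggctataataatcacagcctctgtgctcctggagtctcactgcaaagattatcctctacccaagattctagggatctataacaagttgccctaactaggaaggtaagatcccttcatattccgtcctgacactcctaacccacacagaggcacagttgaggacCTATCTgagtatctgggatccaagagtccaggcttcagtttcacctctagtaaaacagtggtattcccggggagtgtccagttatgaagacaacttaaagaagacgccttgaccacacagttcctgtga
Mcpt4: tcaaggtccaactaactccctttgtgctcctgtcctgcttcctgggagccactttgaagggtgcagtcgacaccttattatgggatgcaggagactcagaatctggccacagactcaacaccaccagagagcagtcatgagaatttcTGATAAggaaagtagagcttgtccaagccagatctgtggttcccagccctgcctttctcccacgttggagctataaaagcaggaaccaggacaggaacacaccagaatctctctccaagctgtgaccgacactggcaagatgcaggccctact
Hdc: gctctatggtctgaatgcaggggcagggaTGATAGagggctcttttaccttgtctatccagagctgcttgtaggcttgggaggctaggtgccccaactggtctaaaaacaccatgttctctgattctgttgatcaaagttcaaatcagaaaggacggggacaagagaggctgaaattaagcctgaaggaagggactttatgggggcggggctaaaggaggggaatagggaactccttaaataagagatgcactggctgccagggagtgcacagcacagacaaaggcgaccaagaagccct
The motif began at base -46 from the start in Cpa3, at -79 in Cma1, at -103 in Mcpt4 and at -221 in Hdc, and in Cma1 it lay on the opposite strand. A GATA motif stood in the windows of 6 of the 7 genes, Fcer1a and Ms4a2 included and Kit excepted, against 29.8% of 32851 promoter windows of the same length. Ms4a2 held 3 such motifs, and 7.77% of all windows held at least 2. A 6-letter motif bound by MITF-type factors (CACGTG as well as CATGTG, on either strand, neither overlapping a GATA motif) occurred in the window of Fcer1a alone among the 7 genes, against 20.4% of all windows. These matches describe letters in a window and not binding.

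Intensities below are the non-normalized bead values, on a linear scale that still includes a background of 86.0, 101, 97.2 and 88.5 on the 0, 0.85, 8.5 and 17 Gy arrays. The SD of that background, estimated for each array from its detection p-values, was between 5.48 and 7.19. A probe was called detected at a detection p under 0.01, the value deposited beside each intensity. Such values usually compare a probe with negative control beads, and the sources used here do not name the software behind them. Differences are given on the log2 scale after background correction, addition of an offset of 16 and quantile normalization. The offset draws the differences of dim probes toward 0. If only 1 of the 2 arrays in a pair detected a gene, the gene was not well above background on the other, and its fold is a lower bound written "at least". Levels are compared between arrays within a probe and never between probes. Readings given without a difference are uncorrected for the background of their array and for scaling between arrays.

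**Figure D1:**
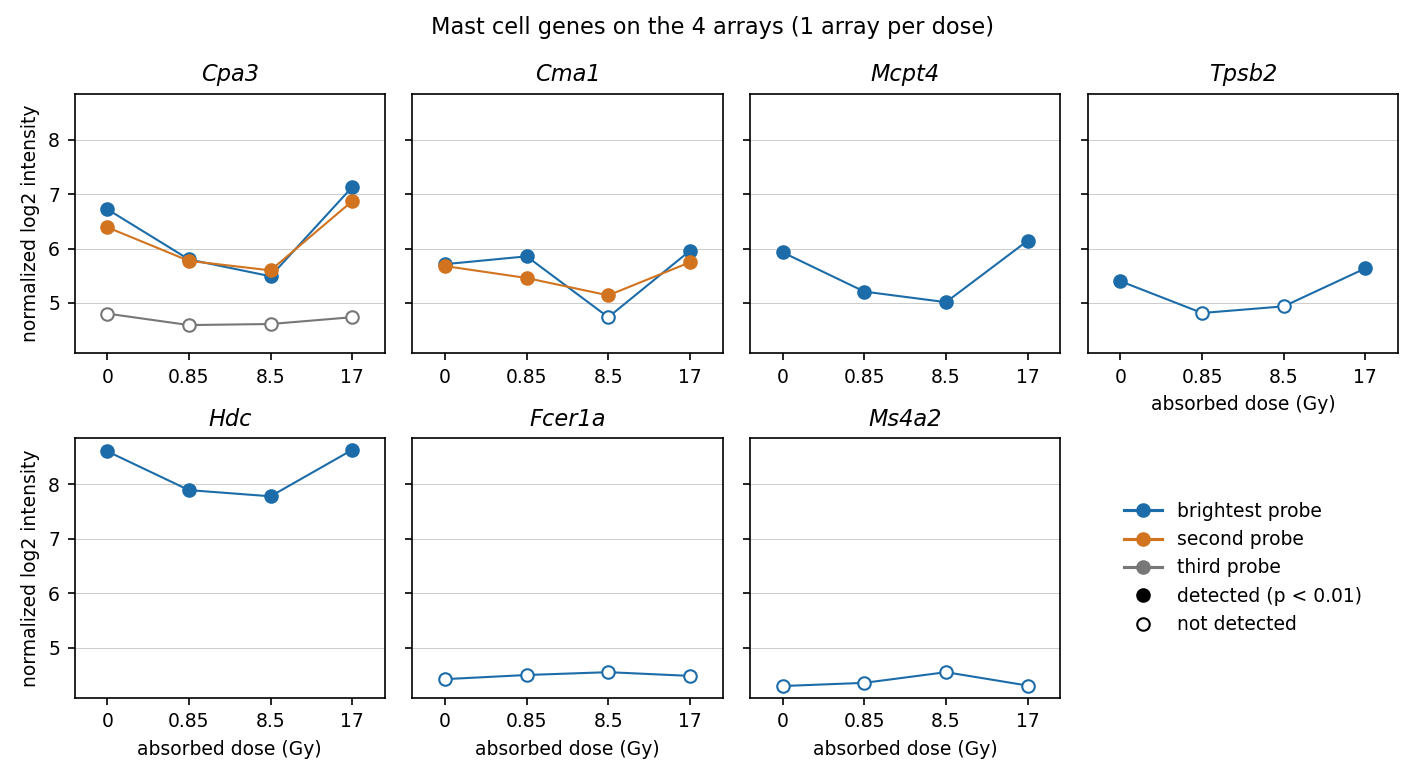
Normalized log2 intensity of all 10 probes of the 7 mast cell genes with a probe (vertical axis) against absorbed dose in Gy (horizontal axis), 1 array per dose, with filled points detected and open points not detected. The brightest probes of Cpa3, Cma1, Mcpt4, Tpsb2 and Hdc are highest at 17 Gy (Cma1 at 0.85 Gy with no scaling between arrays), and those of Fcer1a and Ms4a2 are open on all 4 arrays.

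Cpa3 encodes mast cell carboxypeptidase A, which trims C-terminal residues from peptides and degrades toxins and endothelin in the granule environment. Its brightest probe read 166 at 0 Gy, 145 at 0.85 Gy, 128 at 8.5 Gy and 208 at 17 Gy, all of them detected. The 2 middle doses were thus the low arrays and 17 Gy the highest. Cpa3 was 1.90-fold lower at 0.85 Gy than at 0 Gy (log2 difference -0.92) and 2.35-fold lower at 8.5 Gy than at 0 Gy (-1.23). At 17 Gy it was 1.33-fold higher than at 0 Gy (0.41), 2.52-fold higher than at 0.85 Gy (1.33) and 3.12-fold higher than at 8.5 Gy (1.64). In bulk tissue, fewer cells of a type and less RNA per cell cannot be told apart. A second Cpa3 probe read 146, 144, 131 and 186 in order of dose, with differences of -0.62, -0.79 and 0.48 for 0.85, 8.5 and 17 Gy minus 0 Gy. Both probes therefore placed the 4 arrays in the same order, with the lowest value at 8.5 Gy. The dimmest Cpa3 probe read 96, 108, 105 and 98 and was not detected on any array.

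Cma1 encodes the mouse chymase mMCP-5, which mast cells of connective tissue store together with Cpa3. The brighter of its probes read 118 at 0 Gy, 148 at 0.85 Gy, 108 at 8.5 Gy and 133 at 17 Gy, and it was not detected at 8.5 Gy, where the detection p was 0.067. Unlike Cpa3, this probe was not low at 0.85 Gy. Cma1 was 1.10-fold higher at 0.85 Gy than at 0 Gy (0.14), at least 1.62-fold lower at 8.5 Gy than at 0 Gy and 1.19-fold higher at 17 Gy than at 0 Gy (0.25). On this probe Cma1 was at least 1.79-fold lower at 8.5 Gy than at 0.85 Gy, and at least 1.93-fold higher at 17 Gy than at 8.5 Gy. A second Cma1 probe, detected on all 4 arrays, read 117, 132, 118 and 125 in order of dose. Its folds were smaller, 1.25-fold lower at 8.5 Gy than at 0.85 Gy (-0.32) and 1.52-fold higher at 17 Gy than at 8.5 Gy (0.61). The probes disagreed at 0.85 Gy, where the second gave -0.22 against 0 Gy, and both placed 8.5 Gy lowest, with -0.54 against 0 Gy on the second.

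Mcpt4 encodes mMCP-4, the chymase regarded as the closest functional counterpart of human mast cell chymase. Its only probe read 126 at 0 Gy, 124 at 0.85 Gy, 115 at 8.5 Gy and 141 at 17 Gy. It was detected on every array, although at 8.5 Gy by a narrow margin (detection p 0.0089). Mcpt4 was 1.65-fold lower at 0.85 Gy than at 0 Gy (-0.72), 1.89-fold lower at 8.5 Gy (-0.92) and 1.16-fold higher at 17 Gy (0.21). At 17 Gy it was 1.91-fold higher than at 0.85 Gy (0.94) and 2.19-fold higher than at 8.5 Gy (1.13). Its arrays ranked as those of Cpa3 did.

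Tpsb2 encodes the tryptase mMCP-6, a tetrameric serine protease held by heparin in the granule. Its probe read 109 at 0 Gy, 114 at 0.85 Gy, 113 at 8.5 Gy and 121 at 17 Gy. It was detected on the 0 and 17 Gy arrays only, with detection p of 0.055 at 0.85 Gy and 0.015 at 8.5 Gy. Above the background of its own array the probe stood 23.0 units at 0 Gy, 13.2 at 0.85 Gy, 15.8 at 8.5 Gy and 32.5 at 17 Gy, so the order above background differs from the raw order. Tpsb2 was at least 1.20-fold lower at 0.85 Gy than at 0 Gy, at least 1.31-fold lower at 8.5 Gy and 1.18-fold higher at 17 Gy (0.24). At 17 Gy it was at least 1.41-fold higher than at 0.85 Gy and at least 1.54-fold higher than at 8.5 Gy.

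Hdc encodes histidine decarboxylase, the enzyme that makes histamine, and is used by mast cells but also by basophils, neutrophils and some gastric and neural cells. Its probe read 421 at 0 Gy, 356 at 0.85 Gy, 304 at 8.5 Gy and 449 at 17 Gy, and it was detected on every array. Hdc was 1.64-fold lower at 0.85 Gy than at 0 Gy (-0.71) and 1.77-fold lower at 8.5 Gy (-0.83), while at 17 Gy it differed from 0 Gy by 1.02-fold (0.03). At 17 Gy it was 1.67-fold higher than at 0.85 Gy (0.74) and 1.81-fold higher than at 8.5 Gy (0.85). The histamine-synthesis gene thus had its low arrays where Cpa3 and Mcpt4 had theirs.

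The receptor genes gave no measurable level. Fcer1a, the immunoglobulin E-binding alpha chain, read 87, 105, 103 and 92 in order of dose, and its lowest detection p was 0.172. Ms4a2, the beta chain that amplifies receptor signalling, read 82, 99, 103 and 85, with a lowest detection p also of 0.172. Both probes stood at most 5.82 units above the background mean of their array, so neither gene supports a comparison between doses.

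**Figure D2:**
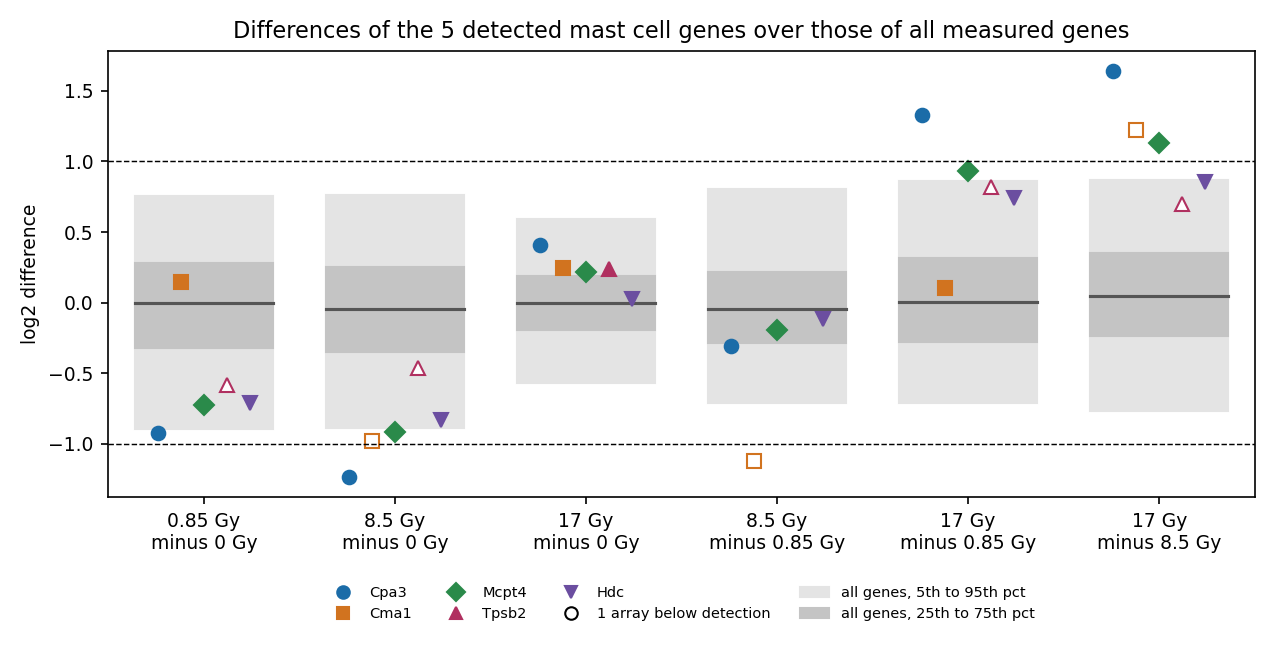
Log2 difference of the normalized intensity (vertical axis) of the 5 detected mast cell genes for each of the 6 pairs of doses (horizontal axis), 1 array per dose, over grey bars for the 5th to 95th and 25th to 75th percentiles of all measured genes. Cpa3 lies below the wider bar at 0.85 and 8.5 Gy minus 0 Gy and above it at 17 Gy minus 0.85 Gy and minus 8.5 Gy.

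Over all pairs of doses, the differences of the mast cell genes were read against those of every gene measured in the same pair. A gene was measured if it was detected on at least 1 of the 2 arrays, which 5 mast cell genes were in every pair except 8.5 against 0.85 Gy, where 4 were. These 5 pass only through arrays on which they are bright, so their counts describe the detected genes and not all 8. Because each array enters 3 of the 6 pairs, the pairs are not independent.

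At 0.85 Gy against 0 Gy, 0 mast cell genes passed 2-fold in either direction, where 1.78% of 7682 measured genes were higher by that much and 3.68% lower. Differences of 4 of the 5 measured genes were negative, with Cma1 the exception (with the mean of its probes, Cma1 was -0.04). The median over the 7 genes with a probe was -0.59, against 0.00 over all genes. Cpa3, at -0.92, lay just outside the 5th percentile of all measured genes, which was -0.895.

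At 8.5 Gy against 0 Gy, 1 mast cell gene, Cpa3, was at least 2-fold lower and 0 were higher, where 3.63% of 7862 measured genes were lower and 2.63% higher. All 5 measured genes had negative differences. Their list's median over the 7 genes was -0.83, against -0.02 over all genes. The 5th percentile of all measured genes was -0.891, and Cpa3, Cma1 and Mcpt4 lay below it on their fitted values of -1.23, -0.98 and -0.92. Of these, Cma1 is a bound, at least 1.62-fold lower, and its second probe gave -0.54.

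At 17 Gy against 0 Gy the 5 measured mast cell genes had small positive differences. None of the 5 was at least 2-fold apart (0 higher and 0 lower), where 0.88% of 7839 measured genes were higher and 0.459% lower. All 5 differences were positive and lay between 0.03 for Hdc and 0.41 for Cpa3, within the 5th to 95th percentile of all measured genes, which ran from -0.568 to 0.59. The brightest probes of Cpa3, Cma1, Mcpt4 and Tpsb2 lay above the 75th percentile of 0.19, while Hdc and the second Cma1 probe (0.07) did not. The median over the 7 genes was 0.21, against -0.01 over all genes.

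At 8.5 Gy against 0.85 Gy all 4 measured mast cell genes had negative differences. Of 4 measured mast cell genes, 0 were 2-fold higher and 1, Cma1, was lower on its fitted value (-1.12), where 3.27% of 7822 measured genes were higher and 1.48% lower. With Cma1 at its bound of at least 1.79-fold, 0 genes were 2-fold lower, and the second Cma1 probe gave -0.32. The fitted value of Cma1 lay below the 5th percentile of all measured genes (-0.713), while Cpa3, Mcpt4 and Hdc, at -0.31, -0.20 and -0.11, did not. The median over the 7 genes was -0.11, against -0.02 over all genes.

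At 17 Gy against 0.85 Gy, 1 mast cell gene, Cpa3, was at least 2-fold higher and 0 lower, where 3.45% of 7852 measured genes were higher and 1.35% lower. All 5 measured genes had positive differences, except that Cma1 was -0.06 with no scaling between arrays, and the median over the 7 was 0.74, against 0.00 over all genes. At 17 Gy against 8.5 Gy, 3 of the 5 measured genes were at least 2-fold higher (Cpa3, Cma1 and Mcpt4) and 0 lower, where 3.47% of 8038 measured genes were higher and 2.65% lower. With Cma1 at its bound, at least 1.93-fold, the count was 2, and the second Cma1 probe gave 0.61. All 5 were positive and the median over the 7 was 0.85, against 0.01 over all genes. This pair held the largest fitted differences of Cpa3, Mcpt4 and Hdc among the 6 pairs.

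The sizes were smaller in other processings of the same arrays. Without background correction, Cpa3 differed by -0.58 at 8.5 Gy against 0 Gy and by 0.83 at 17 Gy against 8.5 Gy. In the deposited normalized values, 0 mast cell genes reached 2-fold in any of the 6 pairs. There, the same differences of Cpa3 were -0.70 and 0.97, in place of -1.23 and 1.64. Both processings kept the direction in 30 of 30 differences of the 5 detected genes.

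The protease genes lie in clusters, and few of the cluster genes listed here were detected. Cma1 and Mcpt4 belong to the chymase locus on chromosome 14. RefSeq orders the genes listed here as Cma1, Cma2, Mcpt1, Mcpt2, Mcpt9, Mcpt4, Mcpt8, Ctsg and Gzmb, a chosen set and not the whole locus. Of these 9 genes, Cma1 and Mcpt4 were detected and the other 7 were not detected on any array. Among those 7 are Mcpt1 and Mcpt2, the markers of mucosal mast cells, Mcpt8, a marker of basophils, and Ctsg and Gzmb, proteases of neutrophils and cytotoxic lymphocytes. On chromosome 17, Tpsb2 neighbours Tpsab1, the tryptase mMCP-7, which was not detected, and Tpsg1, which had no probe. RefSeq annotates Tpsab1 as a transcribed pseudogene in its C57BL/6J reference, while these mice were Balb/c. Members of these clusters resemble each other in sequence, and cross-hybridisation between them was not tested.

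The wider genes of mast cell function were described in 7 lists by role, 88 genes in all, of which 81 had a probe, 28 were detected on at least 1 array and 17 on all 4. At 8.5 Gy against 0 Gy, 2 of 23 measured genes were at least 2-fold lower and 0 higher, beside 3.63% and 2.63% of all measured genes. At 17 Gy against 8.5 Gy, 1 of 27 was higher and 0 lower, beside 3.47% and 2.65%. Of these 3 genes, Csf2rb2 and Il3ra passed 2-fold on fitted values alone and not at their bounds, given below. In the other 4 pairs, 0 were at least 2-fold apart in either direction. The medians over the 81 genes, most of them undetected, lay between -0.07 and 0.03 in the 6 pairs. Over the measured genes alone, the medians were -0.30 at 0.85 Gy and -0.32 at 8.5 Gy minus 0 Gy, and 0.28 and 0.31 at 17 Gy minus 0.85 Gy and minus 8.5 Gy, beside -0.005, -0.045, 0.007 and 0.047 for all measured genes in the same pairs. At 17 Gy minus 0 Gy and at 8.5 Gy minus 0.85 Gy they were 0.016 and 0.045.

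Among the other granule proteins, 4 of 14 genes with a probe were detected and 0 were at least 2-fold apart in any pair. Srgn, which encodes the serglycin core that carries heparin, read 186 at 0 Gy, 293 at 0.85 Gy, 280 at 8.5 Gy and 174 at 17 Gy. Its profile ran opposite to that of Cpa3, 1.52-fold higher at 8.5 Gy than at 0 Gy (0.60) and 1.85-fold lower at 17 Gy than at 8.5 Gy (-0.88). A second Srgn probe, detected on all 4 arrays, read 131, 160, 158 and 127. It gave smaller differences of 0.17 and -0.42 for the same pairs. Srgn is also made by neutrophils, macrophages and endothelium. Cd63, a tetraspanin of granule and lysosome membranes, read 681, 679, 640 and 703 in order of dose. Its differences from 0 Gy were -0.42, -0.32 and -0.01. Its dimmer probes, detected on all 4 arrays, disagreed at 0.85 Gy minus 0 Gy, with -0.62 and 0.29. Ctsd, the lysosomal protease cathepsin D, read 104, 147, 132 and 123, with differences from 0 Gy of 0.66, 0.42 and 0.50. Neither is restricted to mast cells.

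Among 16 surface receptor genes with a probe, 4 were detected on at least 1 array and 1 on all 4. That gene was Ptger3, a prostaglandin E2 receptor also expressed in adipose tissue, which read 458, 754, 729 and 593 in order of dose, with differences from 0 Gy of 0.42, 0.56 and 0.37. Csf2rb2, the mouse interleukin-3-specific beta chain, read 110, 104, 98 and 103 and was detected at 0 Gy only. It was at least 1.34-fold lower at 8.5 Gy than at 0 Gy, though its fitted value (-1.04) passes 2-fold. Il3ra, the interleukin-3 receptor alpha chain, read 97, 126, 101 and 122, was detected at 0.85 and 17 Gy, and was at least 1.57-fold higher at 17 Gy than at 8.5 Gy (fitted value 1.19). Fcer1g, the shared gamma chain of Fc receptors, and Mrgprb2, the mast cell receptor for basic secretagogues, were not detected on any array.

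Of 20 signalling genes with a probe, 9 were detected on at least 1 array, 5 on all 4, and 0 were at least 2-fold apart in any pair. Stim1, the calcium sensor of the endoplasmic reticulum, read 417, 440, 410 and 427 in order of dose, and Orai1, the channel it opens, read 233, 237, 268 and 232. Stat5a, a transcription factor downstream of KIT and of interleukin-3, read 282, 321, 242 and 271. A dimmer Stat5a probe, not detected at 0.85 Gy, read 115, 119, 118 and 125. Its fitted differences from 0 Gy were -0.59, -0.47 and 0.14 at 0.85, 8.5 and 17 Gy. These genes act in many cell types. Syk, the kinase recruited to the immunoglobulin E receptor, was not detected.

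Of 9 ligand genes with a probe, 4 were detected, and Kitl, which encodes stem cell factor, was not. Il33, an alarmin of stromal and endothelial nuclei that activates mast cells, read 148 at 0 Gy, 131 at 0.85 Gy, 125 at 8.5 Gy and 132 at 17 Gy. It was 1.99-fold lower at 0.85 Gy than at 0 Gy (-0.996), 2.04-fold lower at 8.5 Gy (-1.03) and 1.41-fold lower at 17 Gy (-0.50). Il33 was thus lower on each dosed array, whereas Cpa3 at 17 Gy was above its 0 Gy value. Cxcl12, a stromal chemokine that attracts mast cell progenitors, read 2550, 1992, 2326 and 1923 in order of dose. Its dimmer probes detected on all 4 arrays disagreed at 0.85 Gy minus 0 Gy, with 0.32 and -0.87. Tgfb1, the cytokine TGF-beta1, read 130, 134, 119 and 142. Tgfb1 differed from 0 Gy by -0.51, -0.85 and 0.13 at 0.85, 8.5 and 17 Gy, the same order of arrays as Cpa3.

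All 8 transcription factor genes had a probe, 4 were detected, and 0 were at least 2-fold apart in any pair. Gata2, which mast cells, basophils, endothelium and preadipocytes use, read 187, 201, 205 and 189 in order of dose, with differences from 0 Gy between -0.31 and -0.10. Zfpm1, the GATA cofactor FOG1, read 286, 359, 362 and 314, and Cebpa, a regulator of adipocytes and myeloid cells, read 358, 501, 336 and 371. Gata1, Mitf, Tal1 and Runx1 were not detected. Of the lipid mediator genes, 3 of 8 with a probe were detected and 0 were at least 2-fold apart. Medians over the 2 measured were -0.61 and -0.65 at 0.85 and 8.5 Gy minus 0 Gy. The medians of all measured genes were -0.005 and -0.045. Over 3 measured lipid mediator genes, medians were 0.34, 0.71 and 0.70 at 17 Gy minus 0, 0.85 and 8.5 Gy. For all measured genes they were 0.00, 0.007 and 0.047. Ltc4s, leukotriene C4 synthase, read 385, 339, 266 and 312 in order of dose, and Alox5ap, the protein that presents arachidonate to 5-lipoxygenase, read 229, 214, 220 and 283. All 6 histamine-handling genes, the 4 histamine receptors and the degrading enzymes Hnmt and Aoc1, were undetected on their brightest probes. A dimmer probe of the receptor gene Hrh2 read 88, 102, 100 and 106 in order of dose and was detected at 17 Gy only.

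The genes with the profiles closest to that of Cpa3 were sought among the 6476 other genes detected on all 4 arrays, by the root mean squared distance between log2 profiles centred on their own means. With 4 arrays this is a description and not a test. The closest 8 were Mmp2 (distance 0.0657), Csprs, Gfpt2, Dpt, Hal, Siglec1, Sh3pxd2b and Cldn12 (0.131). Mmp2, a matrix-degrading gelatinase, read 1039 at 0 Gy, 832 at 0.85 Gy, 577 at 8.5 Gy and 1435 at 17 Gy. Dpt, the matrix protein dermatopontin, read 391, 261, 218 and 512 in order of dose, and Siglec1, a sialic acid-binding receptor of macrophages, read 156, 144, 122 and 178. Mcpt4 ranked 31st (0.195) and Hdc 97th (0.292), both of 6476 genes and outside the 8 named. Mrc1, a macrophage marker, ranked 38th (0.215) and Srgn 6315th.

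**Figure D3:**
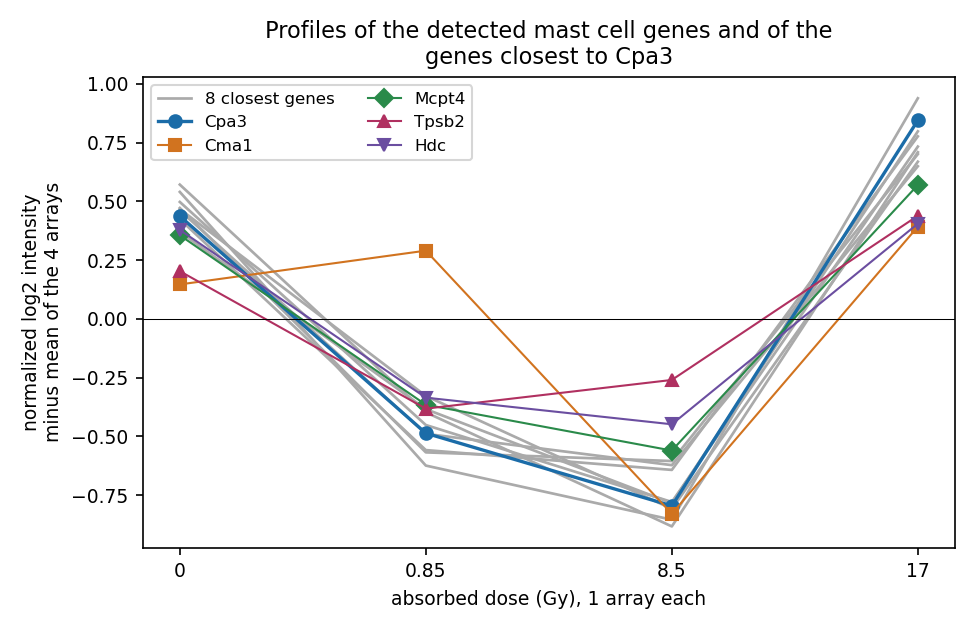
Normalized log2 intensity minus each gene's mean over the 4 arrays (vertical axis) against absorbed dose in Gy (horizontal axis), 1 array per dose, for the 5 detected mast cell genes and, in grey, the 8 genes closest to Cpa3. Cpa3, Mcpt4 and Hdc are low at 0.85 and 8.5 Gy and high at 0 and 17 Gy, while Cma1 is low at 8.5 Gy alone.

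Markers of other cell types were measured beside the mast cell genes, as summed normalized intensity on the linear scale. The mast cell sum was 581.1 at 0 Gy, 348.0 at 0.85 Gy, 289.5 at 8.5 Gy and 650.9 at 17 Gy, most of it from Hdc. Without Hdc it was 206.4, 125.8, 85.3 and 268.9. The sum of 8 connective tissue genes, 7 of them detected on all arrays, was 11229.5 at 0 Gy, 5315.9 at 0.85 Gy, 6602.1 at 8.5 Gy and 10884.5 at 17 Gy. Both sums, of connective tissue and of mast cell genes, were low at 0.85 and 8.5 Gy. Of the measured connective tissue genes, 3 of 7 were at least 2-fold lower at 0.85 Gy than at 0 Gy and 5 of 7 at 8.5 Gy. The shares of all measured genes were 3.68% and 3.63%. Medians over these 7 were -0.98 and -1.13, beside -0.005 and -0.045 over all measured genes. At 17 Gy against 0.85 Gy, 4 of 8 connective tissue genes were at least 2-fold higher, beside 3.45% of all measured genes. At 17 Gy against 8.5 Gy, 2 of 8 were, beside 3.47%. The brightest connective tissue genes were the matrix proteoglycan gene Dcn, which read 6705, 4880, 5860 and 6916 in order of dose, Pi16, which read 1029, 770, 582 and 864, and Lum, which read 930, 293, 297 and 675. Smooth muscle genes, 3 of 4 detected, summed to 5269.5 at 0 Gy, 4907.6 at 0.85 Gy, 2291.4 at 8.5 Gy and 4448.6 at 17 Gy, lowest at 8.5 Gy as the mast cell sum was. Of those measured, 2 of 2 were at least 2-fold lower at 8.5 Gy than at 0 Gy and 2 of 3 higher at 17 Gy than at 8.5 Gy. The shares of all measured genes were 3.63% and 3.47%. Endothelial genes, 4 of 5 detected, summed to 1616.6, 1340.0, 888.3 and 1101.0 in order of dose, also lowest at 8.5 Gy. The part of these cell types in the mast cell result was not tested.

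**Figure D4:**
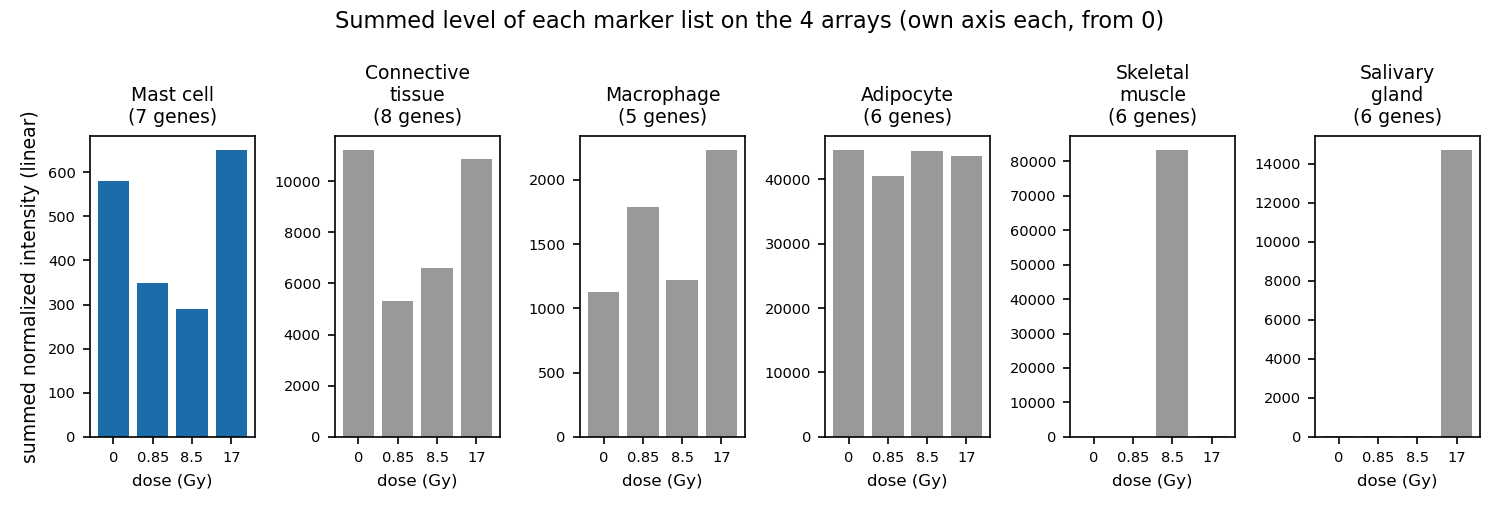
Summed normalized intensity on the linear scale (vertical axes from 0, one scale per panel) of the mast cell genes and other marker lists against absorbed dose in Gy, 1 array per dose. The mast cell and connective tissue bars are both lowest at the 2 middle doses.

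The summed macrophage and neutrophil markers were lowest at 0 Gy, although single macrophage genes differed. The sum of 5 macrophage genes, all detected on every array, was 1125.6 at 0 Gy, 1788.4 at 0.85 Gy, 1221.1 at 8.5 Gy and 2233.9 at 17 Gy, highest at 17 Gy as the mast cell sum was. Mrc1, the mannose receptor, read 246, 247, 198 and 427 in order of dose and differed from 0 Gy by -0.43, -0.78 and 0.94, low and high on the same arrays as Cpa3. C1qb, a complement subunit, read 338, 454, 290 and 571. The neutrophil sum was 166.4, 568.0, 426.9 and 343.4 in order of dose, with 2 of 6 genes detected, S100a8 and S100a9. Adipocyte genes summed to between 40602.6 and 44590.0 on the 4 arrays. Skeletal muscle genes summed to 83374.1 at 8.5 Gy, against 26.1 to 191.8 on the others, and salivary gland genes to 14705.6 at 17 Gy, against 36.3 to 56.6. The arrays on which the mast cell genes were lowest and highest therefore also held the muscle and the salivary transcripts, and the part of tissue makeup in the mast cell values was not tested. Of the basophil markers, Mcpt8, Prss34, Cd200r3 and Fcer1a were undetected and only Gata2 was detected. Of the melanocyte markers, 1 of 5 was detected, and Mcpt1 and Mcpt2 were not.

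Most markers of the labelled tissue were undetected. Of 6 thyrocyte genes with a probe, Tshr alone was detected, reading 137, 137, 142 and 122 in order of dose on its brightest probe. Its differences from 0 Gy on that probe were -0.60, -0.32 and -0.53 at 0.85, 8.5 and 17 Gy. The thyroglobulin gene Tg and the genes Slc5a5, Pax8, Nkx2-1 and Foxe1 were not detected on any array. The mast cell values therefore describe samples whose detected transcripts included those of fat and connective tissue. Probes detected numbered between 9977 and 10500 per array, and precision is limited by having 4 arrays.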

How the data were processed

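Total RNA from fresh-frozen samples was labelled with biotin and hybridised to 4 Illumina mouse BeadChip arrays, per the labels' protocols. The authors deposited a non-normalized table of linear bead intensity values and, per the file headers, a detection p-value beside each, plus a normalized table of intensity values. Sorting each of its 4 columns gave the same values, as quantile normalization would. The scanner software is not given in the sources used here.

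From the non-normalized intensities of 26512 probes, neqc of limma 3.58.1 (R 4.3.3) estimated the background from the detection p-values, corrected it by normexp, added an offset of 16, quantile-normalized and took log2. Of the 25697 probes in the value table, 23978 had 1 gene symbol in the platform's annotation, 0 several and 1719 none. A gene was represented by its probe of highest mean raw intensity. Differences, medians and counts at a 2-fold threshold were computed with Python 3.11.15, numpy 2.4.6 and pandas 2.3.3, and figures with matplotlib 3.10.9. With 1 array per dose nothing was tested. A bound sets the bright array's normalized value against the higher of the dim probe's own value and the lowest value among the dim array's detected probes. The normalization was checked on simulated arrays in which only bright probes were changed. Probes as dim as those of most mast cell genes, and the medians, list counts and bounds, were not checked in this way.

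The members and gene lists were chosen with earlier results of these data known. Named genes were the members, the genes of each list at least 2-fold apart, its 3 brightest genes detected on all arrays, the 8 genes closest to Cpa3 and up to 3 markers of a cell type. Other genes named as undetected, and the sum without Hdc, were added after their values were seen. Alternatives were the authors' normalized values, no background correction, other scalings, an offset of 50, the mean of all probes, other detection filters, a 1.5-fold threshold and bounds in place of fitted values.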

Additional observations from a re-analysis of the deposited data

How the results depend on the processing

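No paired analysis was possible because each dose had 1 array. No median changed direction under any alternative run, and no difference at least 2-fold apart did so. Of the 30 differences of the 5 detected genes, 30 kept their direction in the authors' normalized values, without background correction, with an offset of 50 and with scaling to the 75th percentile. With the mean of all probes, and with no scaling between arrays, 29 did: Cma1 at 0.85 Gy minus 0 Gy became -0.04 with the mean of its probes, and Cma1 at 17 Gy minus 0.85 Gy became -0.06 without scaling. The sizes moved, and apart from alternatives that change the threshold, the genes counted or the offset by construction, the cause was not tested.

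The median at 0.85 Gy minus 0 Gy (-0.59) was -0.25 in the authors' normalized values, -0.19 without background correction, -0.37 with no scaling between arrays, -0.29 with an offset of 50 and -0.26 with bounds, an alternative chosen after seeing the data. At 8.5 Gy minus 0 Gy (-0.83) it was -0.43 in the authors' values, -0.33 without background correction and -0.51 with an offset of 50. At 17 Gy minus 0 Gy (0.21) it was 0.11 in the authors' values and 0.088 without background correction, and 0.14 with an offset of 50. At 8.5 Gy minus 0.85 Gy (-0.11) it was -0.061 without background correction and -0.21 with no scaling. At 17 Gy minus 0.85 Gy (0.74) it was 0.36 in the authors' values, 0.27 without background correction, 0.47 with no scaling and 0.43 with an offset of 50. At 17 Gy minus 8.5 Gy (0.85) it was 0.55 in the authors' values and 0.43 without background correction. With no scaling between arrays, the median of all measured genes itself shifted by 0.33 at 0.85 Gy, 0.16 at 8.5 Gy and 0.07 at 17 Gy minus 0 Gy.

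The count 2-fold lower at 8.5 Gy minus 0 Gy (1), that at 8.5 Gy minus 0.85 Gy (1) and that 2-fold higher at 17 Gy minus 0.85 Gy (1) each became 0 in the authors' values, without background correction, with an offset of 50 and with the mean of all probes. The count at 8.5 Gy minus 0.85 Gy was also 0 with genes detected on all 4 arrays and with bounds. The count 2-fold higher at 17 Gy minus 8.5 Gy (3) became 0 in the authors' values, 0 without background correction and 1 with an offset of 50. At 1.5-fold, 4 genes were lower at 0.85 Gy and 4 at 8.5 Gy minus 0 Gy, 4 were higher at 17 Gy minus 0.85 Gy and 5 at 17 Gy minus 8.5 Gy. The share of all measured genes past 1.5-fold was not computed. In these pairs 1.5-fold lower lay between their 5th and 25th percentiles, and 1.5-fold higher between their 75th and 95th.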
